A study of Zea mays with 9 samples.

Results

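Transcripts of ndl1 (needle1) mutant tassels were compared with those of wildtype tassels in maize, using 7 of the 9 RNA sequencing libraries of the series and every gene identifier in the count table. The 4 ndl1 libraries came from mutants labelled ndl1/zmftsh10, and the 3 wildtype libraries from plants without that mutation. Both groups were of the B73 inbred background and grown in the field, and tassels, the male inflorescences, were taken at a length of 2 to 4 mm. Per the labels' protocols, severely affected tassels on which a few axillary meristems had still formed were among the ndl1 samples. The labels give neither the allele nor whether plants were pooled, and they do not say that the libraries of a group came from separate plants.

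NDL1 belongs to the FtsH family, ATP-dependent proteases that sit in organelle membranes and degrade misfolded or unassembled membrane proteins. In mitochondria such proteases work beside prohibitins, which form ring-shaped scaffolds in the inner membrane, and plants with disturbed mitochondria commonly switch on a nuclear gene for alternative oxidase. In the young tassel, axillary meristems arise on the flanks of the inflorescence in response to auxin and give rise to branches and spikelets.

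The libraries held 16863087 to 22533736 reads counted to genes, and the 10 genes with most reads took 2.61% to 3.08% of them. Of 10 matched identifiers of young inflorescence markers, 9 had reads in every library, and their summed level was 10638 to 17638 normalized counts in ndl1 and 16088 to 19152 in wildtype. These sums rest mostly on kn1, ub3 and ub2, which overlapped between the groups, as did bd1. For td1, ba1, zfl1, ra1, ra3 and spi1 every ndl1 library lay below every wildtype library, where 10.6% of all tested genes did so. Of 11 identifiers of leaf markers (Rubisco small subunit, chlorophyll-binding proteins and phosphoenolpyruvate carboxylase), 8 had reads in every library, with sums of 537 to 802 in ndl1 and 823 to 981 in wildtype. These sums rest mostly on pep1 (GRMZM5G899080) and on lhcb5, which overlapped between the groups. No other leaf identifier exceeded 32.5 in any library, and rbcs (GRMZM2G098520) had a higher median in ndl1 (7.81) than in wildtype (2.89). A normalized count here is a read count divided by the size factor of its library. NDL1 itself (GRMZM2G038401) stood at 2940, 3381, 3474 and 3040 normalized counts in ndl1, against 3517, 3277 and 3182 in wildtype. The groups overlapped, and the difference, ndl1 minus wildtype, was -0.05 ± 0.08 on the log2 scale (standard error, limma, BH-adjusted p = 0.743, where BH stands for Benjamini-Hochberg), so the level of this transcript does not check the genotype labels.

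The libraries of a group were not equally alike. Over all tested genes, the root mean square log2 difference of ndl1 replicate 2 was 0.596, 0.540 and 0.798 to ndl1 replicates 1, 3 and 4, and 0.608, 0.647 and 0.630 to wildtype replicates 1, 2 and 3. It thus lay nearer to every wildtype library than to ndl1 replicate 4. The other pairs of ndl1 libraries differed by 0.465 to 0.609 and the pairs of wildtype libraries by 0.447 to 0.558. The value of 0.609 was between ndl1 replicates 3 and 4, and ndl1 replicate 3 lay nearer to wildtype replicate 3, at 0.565. Replicate 2 was thus not the only ndl1 library nearer to a wildtype library than to ndl1 replicate 4. The first principal component of the 7 libraries, with 57.3% of the variance, placed ndl1 replicates 1 to 4 at 54.6, -6.12, 26.3 and 77.9, and wildtype replicates 1 to 3 at -65.4, -62.4 and -24.9. Wildtype replicate 3 was the wildtype library nearest to ndl1 on this component. Counts of calls in the gene lists below are given with and without ndl1 replicate 2 where they differ.

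Of 22416 genes tested, 708 passed limma's test at a Benjamini-Hochberg adjusted p of 0.05, which is 3.16% of the genes tested. They comprised 434 genes higher in ndl1 (1.94%) and 274 lower in ndl1 (1.22%). Rises were larger than falls, with a median log2 fold change of 1.31 among the genes that rose and -0.82 among those that fell. Mean levels changed more than 8-fold for 75 genes that rose and 6 that fell. The median log2 fold change over all tested genes was -0.001, and 50.2% of them had a negative one. The groups did not overlap in 20.1% of the tested genes, with ndl1 above wildtype in 9.51% and below it in 10.6%. An unadjusted p under 0.05 in limma was reached by 4942 of the 22416 genes, and such counts in the lists below stand beside that number. On the recovered reads edgeR called 3.05% of the genes (1.78% higher and 1.28% lower) and DESeq2 9.86% (6.07% higher and 3.79% lower). Without ndl1 replicate 2 limma called 1467 genes, or 6.58%, with 1046 higher (4.69%) and 421 lower (1.89%). The smallest count with any library left out was 111, without wildtype replicate 2, and 105 genes (0.468%), 90 of them higher in ndl1, were called with all libraries and with each of the 7 left out in turn.

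**Figure D1:**
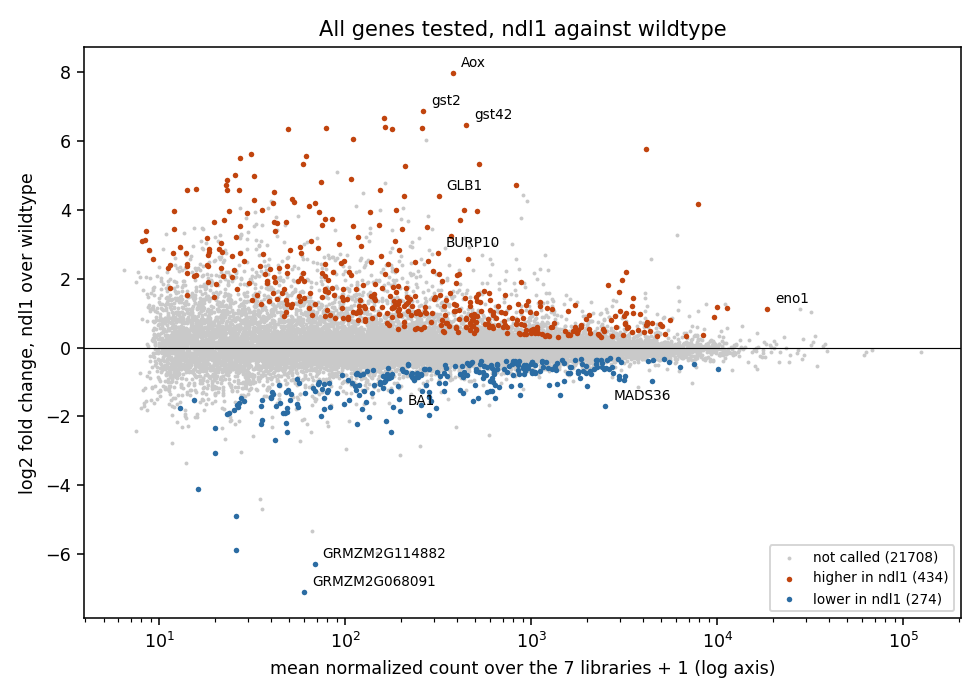
Log2 fold change of ndl1 over wildtype (vertical axis) against the mean normalized count of the 7 libraries plus 1 (horizontal axis, log scale), with 1 point for each of 22416 tested genes. The 434 genes called higher in ndl1 are orange, the 274 called lower are blue, and the points called higher reach farther from 0 than those called lower.

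Genes for mitochondrial proteins were among those that rose. Aox (GRMZM2G125669), a nuclear gene for alternative oxidase, stood at 974, 675, 555 and 437 normalized counts in ndl1, against 2.90, 0.964 and 1.16 in wildtype. Every ndl1 library was far above every wildtype library, including replicate 2, and the log2 fold change was 7.96 ± 0.34 (limma, BH-adjusted p = 3.84e-05). The prohibitin gene phb2 (GRMZM2G107114) stood at 3767, 4540, 3681 and 3417 in ndl1, against 2440, 2286 and 2242 in wildtype. Its prohibitin relative phb3 (GRMZM2G410710) stood at 602, 625, 499 and 375 in ndl1, against 265, 237 and 227 in wildtype. In both genes ndl1 replicate 2 was the highest library of all 7. The rises were 0.72 ± 0.10 for phb2 and 1.08 ± 0.18 for phb3 on the log2 scale (limma, BH-adjusted p = 0.0105 and 0.0195), and a further prohibitin gene, phb1, was at 0.10 ± 0.15 and did not pass.

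These 3 genes were the ones called among 13 tested members of a list of mitochondrial stress and protease genes, whose median log2 fold change was 0.21, beside -0.001 over all genes. Of the 13 values 10 were positive. Limma called 1.94% of all tested genes higher. The protease genes lon1 and LON2, the chaperonin gene CPN60II and the ATP synthase subunit gene ATP2 did not pass, at 0.42 ± 0.25, 0.18 ± 0.09, 0.21 ± 0.12 and 0.03 ± 0.07. Aox was called in each of the 7 fits that left out 1 library, and the list also held 3 calls without ndl1 replicate 2. The call of phb2 was lost without wildtype replicate 2 (limma, BH-adjusted p = 0.0739), and that of phb3 without any 1 wildtype library or without ndl1 replicate 1 (at most 0.112).

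Called genes for other membrane proteins included vdac2 and stm1, which the naming rule took because ndl1 replicate 2 lay farthest beyond the other ndl1 libraries. The gene vdac2 (GRMZM2G115049), for a porin of the outer mitochondrial membrane, stood at 3861, 4915, 3804 and 3337 in ndl1, against 2157, 2129 and 1938 in wildtype. The gene stm1 (GRMZM2G023073), for a stomatin, a protein related to prohibitins, stood at 2057, 2261, 1848 and 1859 in ndl1, against 1315, 1277 and 1415 in wildtype. The groups did not overlap in either gene, and the place of replicate 2 follows from the choice of these genes. The log2 fold changes were 0.93 ± 0.12 for vdac2 and 0.58 ± 0.09 for stm1 (limma, BH-adjusted p = 0.00939 and 0.0150). The call of vdac2 was lost without wildtype replicate 2 (0.0600), and that of stm1 without wildtype replicate 1 or 2 or ndl1 replicate 1 (at most 0.106). Of 6 porin and adenine nucleotide carrier genes, a list drawn up after values were seen, vdac2 was the member called, while vdac1a and vdac1b were at 0.12 ± 0.08 and -0.12 ± 0.08.

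Glutathione transferases conjugate glutathione to reactive or foreign compounds. The gene gst2 (GRMZM2G132093) stood at 474, 454, 367 and 518 normalized counts in ndl1, against 4.83, 1.93 and 2.32 in wildtype. Another member, gst42 (GRMZM2G025190), stood at 1186, 818, 517 and 579.9 in ndl1, against 12.6, 6.74 and 4.64 in wildtype. Both were close to absent in wildtype tassels and uniformly high in ndl1. By contrast gst41 (GRMZM2G097989) was abundant in both groups, at 3843, 3125, 3792 and 3298 in ndl1 and 1825, 1726 and 2019 in wildtype. The log2 fold changes were 6.87 ± 0.27, 6.45 ± 0.36 and 0.92 ± 0.10 (limma, BH-adjusted p = 2.96e-05, 0.000119 and 0.00359).

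The fourth transferase called was gst20 (GRMZM2G056388), at 712, 168, 247 and 664 in ndl1 and 47.3, 11.6 and 58.0 in wildtype. Its levels within ndl1 spread widely, with replicates 2 and 3 low, with a log2 fold change of 3.51 ± 0.66 (limma, BH-adjusted p = 0.0311). Its call was lost without any 1 wildtype library or without ndl1 replicate 1 or 4 (at most 0.126). Of 24 transferase genes tested, 4 rose and 0 fell, 19 had positive fold changes, and the median was 0.42. The count was also 4 without ndl1 replicate 2. Calls higher in ndl1 made up 1.94% of all tested genes, and 4.69% without that library. Among 12 other genes of oxidative stress (peroxidases, catalases and the like) 0 were called, with a median of 0.19. In that list 2 genes had an unadjusted p under 0.05, edgeR called 0, DESeq2 called 1, and without ndl1 replicate 2 limma called 2, both higher in ndl1. Reads of near-identical transferase copies may have been miscounted, since the sources used here do not say how the counting treated them.

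Some genes of glycolysis and of fermentation also rose. The enolase gene eno1 (GRMZM2G064302) stood at 24902, 26313, 21864 and 23500 in ndl1, against 10852, 10872 and 11593 in wildtype. Its paralog eno2 was alike in both groups, at 18048 to 23081 in ndl1 and 18949 to 21118 in wildtype (-0.01 ± 0.11). The aldolase gene ald1 (GRMZM2G057823) stood at 15694, 12155, 15404 and 15451 in ndl1, against 6215, 5899 and 7699 in wildtype. Replicate 2 was the lowest ndl1 library for ald1 and the highest for gpc4 (GRMZM2G176307), the gene of a cytosolic glyceraldehyde-3-phosphate dehydrogenase. The levels of gpc4 were 12423, 16264, 12825 and 10838 in ndl1, against 6243, 5067 and 5808 in wildtype. Log2 fold changes were 1.12 ± 0.09 for eno1, 1.15 ± 0.13 for ald1 and 1.19 ± 0.14 for gpc4 (limma, BH-adjusted p = 0.000929, 0.00445 and 0.00574), and all 3 were called in each fit without 1 library. They were the members called among 11 glycolysis genes, a list drawn up after values were seen, with a median of 0.31 and 10 positive values, and without ndl1 replicate 2 the calls numbered 4. Over all tested genes 1.94% were called higher, and 4.69% without ndl1 replicate 2.

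GLB1 (GRMZM2G067402), a hemoglobin gene of a kind that responds to low oxygen in plants, stood at 619, 446, 263 and 814 in ndl1, against 36.7, 10.6 and 27.8 in wildtype. The alcohol dehydrogenase gene adh1 (GRMZM2G442658) stood at 13212, 8854, 12113 and 13227 in ndl1, against 6570, 5323 and 7421 in wildtype. For ppdk1 (GRMZM2G306345), the gene of pyruvate orthophosphate dikinase, the levels were 467, 349, 393 and 1198 in ndl1, against 33.8, 54.9 and 90.5 in wildtype. None of these groups overlapped, although ndl1 replicate 4 was far above the others for ppdk1 and replicate 2 was nearest to wildtype for adh1. Log2 fold changes were 4.41 ± 0.47, 0.88 ± 0.17 and 3.23 ± 0.46 (limma, BH-adjusted p = 0.00383, 0.0323 and 0.0118). GLB1 was called in all 7 fits without 1 library. The call of ppdk1 was lost without wildtype replicate 2 (0.0747), and adh1 was called in a single one of these fits, the one without ndl1 replicate 2 (0.0110).

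In the list of hypoxia, fermentation and sugar supply genes, these 3 rose, 0 of 17 fell, and the median was 0.27 (0.16 to 0.46 with 1 library left out). Without ndl1 replicate 2, 7 genes of the list rose and 1 fell, and DESeq2 with all libraries called 6 higher and 1 lower. Calls became more frequent over all genes too, since 4.69% of tested genes were called higher without this library, against 1.94% with it. A pyruvate decarboxylase gene, PDC (GRMZM2G087186), had 8260, 4724, 8223 and 10575 in ndl1 and 2885, 3388 and 4749 in wildtype, where replicate 2 of ndl1 lay within the wildtype range. Its log2 fold change was 1.09 ± 0.27 with replicate 2 (limma, BH-adjusted p = 0.0683) and passed without it (0.0139). The hemoglobin gene Hb2 and the invertase gene ivr2 were at 1.64 ± 0.39 and 1.71 ± 0.50 and did not pass with all libraries.

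**Figure D2:**
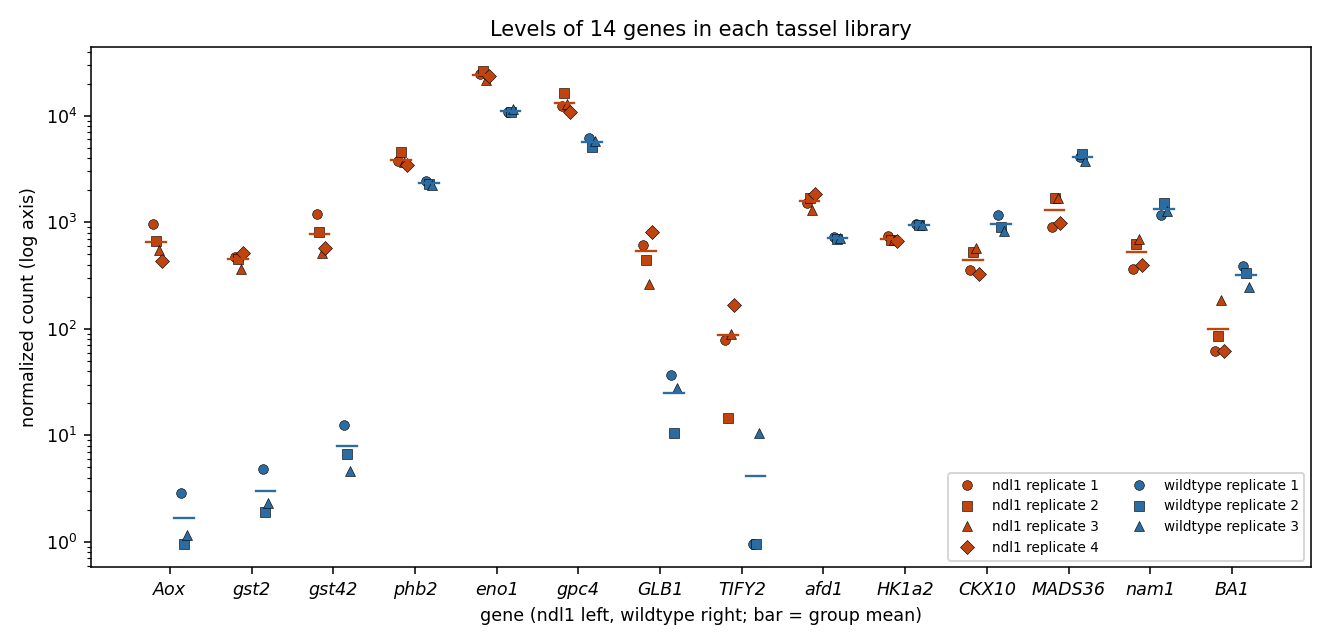
Normalized counts (vertical axis, log scale) of 14 genes in each library, with the 4 ndl1 libraries in orange left of the 3 wildtype libraries in blue, replicates 1 to 4 as circle, square, triangle and diamond, and bars at the group means. Aox and gst2 lie between 367 and 974 in ndl1 and under 5 in wildtype, while the square of TIFY2 in ndl1, replicate 2 at 14.5, lies near wildtype replicate 3 at 10.4.

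Stress-related transcription factor genes rose less evenly. NAC126 (GRMZM2G018436) stood at 116, 76.1, 69.7 and 251 in ndl1, against 7.73, 7.71 and 6.96 in wildtype. ANAC010 (GRMZM2G058518) stood at 131, 111, 67.0 and 34.6 in ndl1, against 0.966, 5.78 and 3.48 in wildtype. Both genes encode NAC factors and separated the groups, with log2 fold changes of 3.73 ± 0.42 and 4.31 ± 0.56 (limma, BH-adjusted p = 0.00468 and 0.00870). Of 16 NAC genes tested, 4 rose and 1 fell, with a median of 0.80 (0.58 to 1.29 with 1 library left out). The others that rose were NAC20 (3.19 ± 0.64), named beside the count after its value was seen, and NAC12 (0.35 ± 0.07), which was called in 1 of the 7 fits without 1 library. Without ndl1 replicate 2, 7 of the NAC genes rose, and without any other single library 2 did. Limma called 1.94% of all tested genes higher and 1.22% lower, and 4.69% higher without ndl1 replicate 2.

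WRKY30 (GRMZM2G143204), at 126, 44.8, 84.7 and 161 in ndl1 and 21.3, 6.74 and 6.96 in wildtype, was the 1 gene called among 15 WRKY genes, whose median was -0.01. Its log2 fold change was 3.09 ± 0.52 (limma, BH-adjusted p = 0.0212), and the call was lost without ndl1 replicate 1 or wildtype replicate 2 or 3 (at most 0.124). Among 28 genes of ethylene-responsive element binding factors 3 rose and 0 fell, with a median of 0.34. The falls in this list depended on the setting, with 2 called without ndl1 replicate 2 (beside 6 rises), 2 by edgeR and 2 at a pseudocount of 5 (beside 3 rises each), 1 with TMM scaling (beside 3 rises) and 3 by DESeq2 (beside 8 rises). Without wildtype replicate 2 limma called 0 members. Over all tested genes limma called 1.94% higher and 1.22% lower, and without ndl1 replicate 2 it called 4.69% higher and 1.89% lower. The shares were 1.78% higher and 1.28% lower in edgeR, and 6.07% higher and 3.79% lower in DESeq2. EREB94 (GRMZM2G363052) stood at 884, 1122, 797 and 687 in ndl1, against 395, 368 and 350.3 in wildtype. Its highest level was in ndl1 replicate 2, and its rise was 1.21 ± 0.15 (limma, BH-adjusted p = 0.00785, lost without wildtype replicate 2 at 0.0579). The other members called were EREB179 (3.71 ± 0.60) and DREB2A (0.57 ± 0.11), whose calls were lost without any 1 wildtype library.

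Genes of jasmonate synthesis and of the TIFY family, which includes the JAZ repressors of jasmonate signalling, had a median of 0.97 over 42 genes, with 35 positive values. With 1 library left out the median lay between 0.54, without wildtype replicate 1, and 1.27, without wildtype replicate 3. Yet a single member, TIFY2 (GRMZM5G838098), was called, and edgeR called 0. DESeq2 called 11, where it called 9.86% of all tested genes. An unadjusted p under 0.05 was reached by 22 members, beside 4942 of all 22416 tested genes. TIFY2 stood at 78.0, 14.5, 89.9 and 166 in ndl1, against 0.966, 0.964 and 10.4 in wildtype, a log2 fold change of 4.22 ± 0.89 (limma, BH-adjusted p = 0.0449). The call of TIFY2 was lost without wildtype replicate 1 or 2 or ndl1 replicate 1, 3 or 4 (at most 0.211). In the fit without ndl1 replicate 2, 11 genes of the list rose, where 4.69% of all tested genes did.

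The spread was within both groups. The allene oxide synthase gene aos1 stood at 12158, 1155, 3307 and 22603 in ndl1, against 147, 568 and 2454 in wildtype. For the sex determination gene ts1, which encodes a lipoxygenase, the levels were 904, 215, 1094 and 777 in ndl1 and 139, 171 and 386 in wildtype. In both genes ndl1 replicate 2 lay below wildtype replicate 3 and inside the wildtype range. As a mean over the 42 genes, the log2 deviation from the wildtype mean was 1.36, 0.16, 1.07 and 1.52 in ndl1 replicates 1 to 4, and -0.65, 0.00 and 0.65 in wildtype replicates 1 to 3. Genes of abscisic acid, ethylene and salicylate defence were at 0.34, -0.32, 0.50 and 1.15 in ndl1 and -0.33, -0.03 and 0.36 in wildtype, and 0 of 29 were called by limma or edgeR, 1 by DESeq2 and 5 at an unadjusted p under 0.05. Of the 29, limma called 1 higher and 1 lower without ndl1 replicate 2.

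Vascular and secondary wall markers, listed as signs of stem or rachis tissue, were likewise high in ndl1 replicates 1, 3 and 4 and lower in replicate 2. Their mean log2 deviation was 0.98, 0.17, 0.79 and 0.98 in ndl1, and -0.12, -0.20 and 0.32 in wildtype. Of 9 tested markers, ccr2 (cinnamoyl-CoA reductase) was called higher at 1.36 ± 0.29 and cad1 (cinnamyl alcohol dehydrogenase) lower at -1.09 ± 0.18, and 8 had positive fold changes. The call of ccr2 (limma, BH-adjusted p = 0.0483) was lost in each of the 7 fits without 1 library, and without ndl1 replicate 2 the calls were 0 higher and 1 lower. The summed level of the list was 1724 to 5730 in ndl1 and 1698 to 3694 in wildtype. The part of vascular tissue in the rises was not tested, and in bulk tissue more or fewer cells of a type and more or less RNA per cell cannot be told apart.

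**Figure D3:**
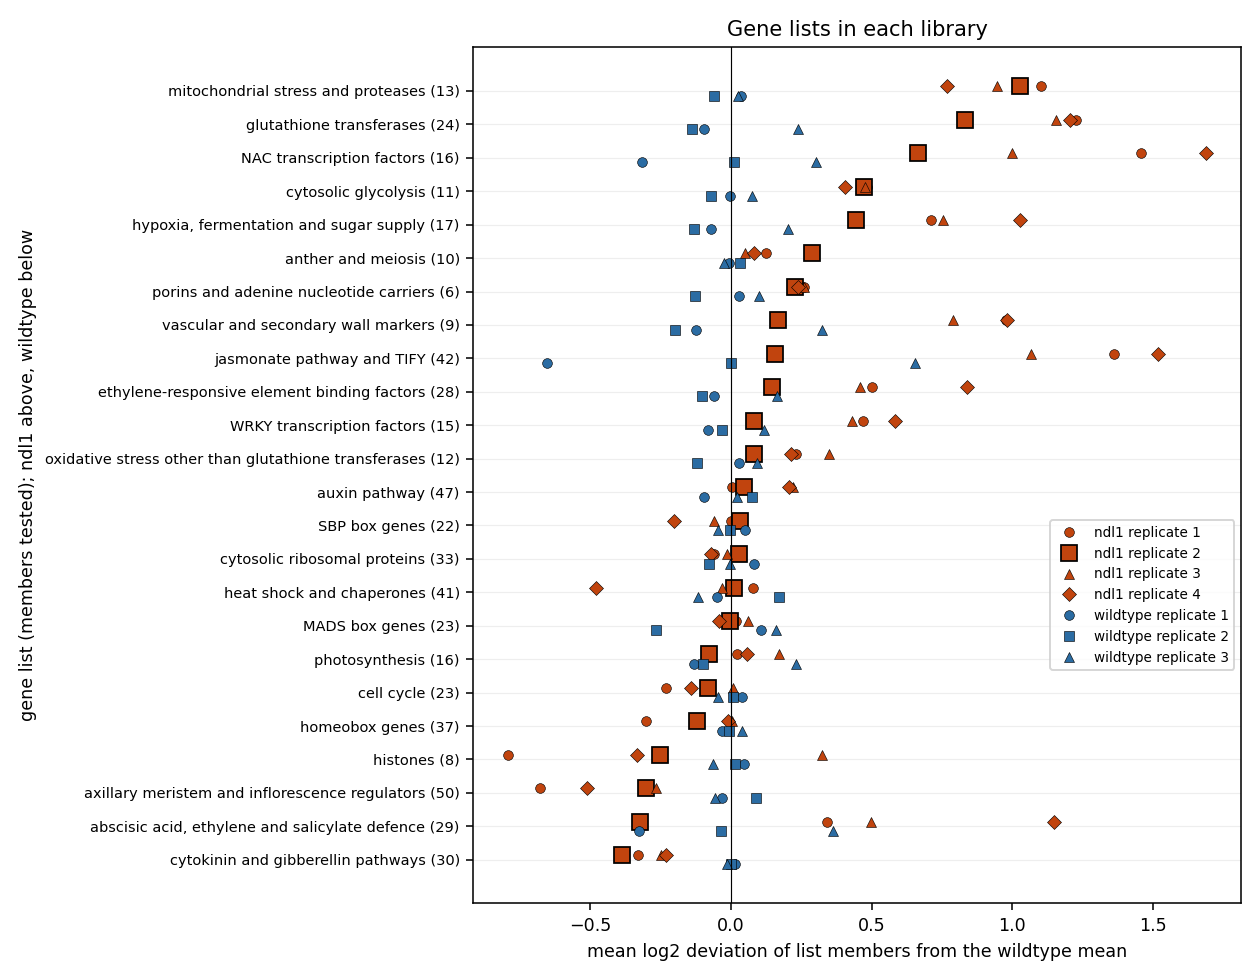
Mean log2 deviation of the tested members of each gene list from the wildtype mean (horizontal axis) in each library, with ndl1 in orange above wildtype in blue, the number of members in brackets, and the lists sorted by ndl1 replicate 2, the large square. Replicate 2 lies among the other ndl1 libraries for mitochondrial stress (1.03), a mean that rests largely on Aox. It is the lowest of the 7 for cytokinin and gibberellin genes (-0.39), and lies near wildtype for jasmonate and TIFY genes (0.16).

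Some cytokinin and gibberellin genes fell by small amounts. Of 30 genes tested, 4 were called, all lower in ndl1, 27 had negative fold changes and the median was -0.31. Calls lower in ndl1 made up 1.22% of all tested genes, and 1.89% without ndl1 replicate 2. In 11 of the 30 every ndl1 library lay below every wildtype library, or 36.7%, where 10.6% of all tested genes did so. HK1a2 (GRMZM2G125943), a histidine kinase gene of the cytokinin receptors, stood at 749.6, 676, 675 and 672 in ndl1, against 964, 941 and 951 in wildtype. CKX10 (GRMZM2G348452), for a cytokinin-degrading oxidase, stood at 358, 521, 575 and 327 in ndl1, against 1178, 894 and 836 in wildtype. The receptor gene fell slightly and evenly, and the oxidase gene fell more and with more spread, by -0.46 ± 0.07 and -1.15 ± 0.22 (limma, BH-adjusted p = 0.0162 and 0.0310).

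The gibberellin members called were an1 and d9. The gene an1 (GRMZM2G081554), for the enzyme of the first committed step of gibberellin synthesis, stood at 499.7, 508, 643 and 664 in ndl1, against 929, 867 and 883 in wildtype. The gene d9 (GRMZM2G024973), for a DELLA repressor of gibberellin responses, stood at 603, 564, 556 and 499 in ndl1, against 824, 697 and 829 in wildtype. Groups did not overlap in either, with log2 fold changes of -0.64 ± 0.12 and -0.49 ± 0.10 (limma, BH-adjusted p = 0.0307 and 0.0369). A biosynthetic enzyme and a repressor thus both fell. The summed level of the 30 genes was 15588, 16152, 16582 and 15722 in ndl1, against 20392, 19977 and 19996 in wildtype, and ndl1 replicate 2 was not the ndl1 library nearest to wildtype. All 4 calls were lost without any 1 wildtype library, with adjusted p up to 0.142 for an1, and 6 members were called without ndl1 replicate 2.

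Among regulators of axillary meristems and inflorescence form, 5 of 50 tested genes were called, all lower in ndl1, where 1.22% of all tested genes were. The median of the list was -0.31, with 40 negative values. BA1 (barren stalk1, GRMZM2G397518), whose bHLH product starts axillary meristems, stood at 62.2, 85.0, 186 and 62.2 in ndl1, against 389, 334 and 247 in wildtype. An AT-hook protein gene that acts upstream of it, baf1 (GRMZM2G072274), stood at 63.2, 147, 97.9 and 66.2 in ndl1, against 311, 329 and 247 in wildtype. The levels of nam1 (GRMZM2G393433), a NAC gene named after the no apical meristem genes of organ boundaries, were 363, 629, 700.1 and 397 in ndl1, against 1164, 1512 and 1287 in wildtype. All ndl1 libraries were below all wildtype libraries, and replicates 1 and 4 tended to be lowest. Log2 fold changes were -1.83 ± 0.37, -1.73 ± 0.29 and -1.39 ± 0.23 (limma, BH-adjusted p = 0.0396, 0.0211 and 0.0218).

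TD1 (GRMZM2G300133), the receptor kinase gene of the CLAVATA pathway that limits meristem size, stood at 196, 331, 350.1 and 192 in ndl1, against 756, 933 and 618 in wildtype. The WUSCHEL-related homeobox gene wox3A (GRMZM2G122537) stood at 77.1, 160.0, 119.9 and 89.9 in ndl1, against 272, 282 and 227 in wildtype. These falls were -1.56 ± 0.25 and -1.26 ± 0.24 (limma, BH-adjusted p = 0.0190 and 0.0330). In 17 of the 50 genes of this list every ndl1 library lay below every wildtype library, or 34%, where 10.6% of all tested genes did so. Among them wus1, ra3 and spi1, at -1.14 ± 0.29, -1.66 ± 0.45 and -0.74 ± 0.22, did not pass. The meristem gene kn1 (listed as KN-1) was at -0.37 ± 0.14 and did not pass either. Of the 5 falls, the highest adjusted p with 1 library left out was 0.188 for BA1, without wildtype replicate 2, and 0 were called without wildtype replicate 1 or 2, 1 (TD1) without wildtype replicate 3 and 1 (nam1) without ndl1 replicate 1. Over the whole list the falls numbered 6 without ndl1 replicate 2, and DESeq2 called 12 lower and 1 higher. Without ndl1 replicate 2 limma called 1.89% of all tested genes lower, and DESeq2 called 3.79% lower and 6.07% higher with all libraries.

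MADS box genes set organ and meristem identity in flowers. MADS36 (GRMZM2G079727) stood at 899, 1686, 1687 and 975 in ndl1, against 4106, 4395 and 3734 in wildtype, and ZAGL1 (GRMZM2G026223) at 1181, 1563, 1554 and 1303 in ndl1, against 2232, 2471 and 2208 in wildtype. In both genes replicates 1 and 4 were the lowest of the ndl1 libraries and far below wildtype. The falls were -1.69 ± 0.24 and -0.73 ± 0.11 (limma, BH-adjusted p = 0.0105 and 0.0153). Together with m5 (-1.08 ± 0.20) and sts1 (-0.70 ± 0.14) they were the 4 called of 23 tested, with a median of -0.14, and 0 members of this list rose. Without ndl1 replicate 2 the falls again numbered 4 and 1 member rose, and DESeq2 called 3 higher and 4 lower. Without wildtype replicate 2 none of the 4 was called, with MADS36 at an adjusted p of 0.0744. Among 37 homeobox genes 4 fell, wox3A, HB21 (-1.54 ± 0.30), HB123 (-0.46 ± 0.09) and HB127 (-1.55 ± 0.33), and 0 were called without any 1 wildtype library or without ndl1 replicate 4. Of the homeobox genes, 4 fell and 1 rose without ndl1 replicate 2. Beside both lists, limma called 1.22% of all tested genes lower and 1.94% higher. Without ndl1 replicate 2 it called 1.89% lower and 4.69% higher, and DESeq2 called 3.79% lower and 6.07% higher with all libraries.

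Auxin genes had fold changes of both signs around a median of 0.02 over 47 tested genes, and the 5 called were all higher in ndl1. Without ndl1 replicate 2, 6 rose and 2 fell, and DESeq2 called 7 higher and 3 lower. Over all tested genes limma called 1.94% higher, and without that library 4.69% higher and 1.89% lower. DESeq2 called 6.07% of all tested genes higher and 3.79% lower. PIN10a (GRMZM2G126260), an auxin efflux carrier gene, stood at 130.0, 63.8, 75.8 and 151 in ndl1, against 0.966, 9.64 and 8.12 in wildtype. GH3 (GRMZM2G378106), of a family of enzymes that join amino acids to auxin or jasmonate, stood at 435, 308, 591 and 459 in ndl1, against 176, 120.4 and 165 in wildtype. Both groups were apart in each gene, with log2 fold changes of 4.12 ± 0.60 and 1.52 ± 0.22 (limma, BH-adjusted p = 0.0133 for each). The response factor genes ARF9 (0.60 ± 0.11) and ARF3 (0.69 ± 0.14) and the gene AUX3 (1.05 ± 0.19) also rose. AUX3 was at 1268, 784, 1040 and 1469 in ndl1 and 498, 580.0 and 534 in wildtype, with replicate 2 nearest to wildtype. PIN10a was called in every fit without 1 library, GH3 in all but that without wildtype replicate 2 (0.0772), and without that library 1 auxin gene was called. The calls of AUX3, ARF9 and ARF3 were each lost in 5 of the 7 fits without 1 library (limma, BH-adjusted p at most 0.125, 0.160 and 0.201).

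Genes of meiosis changed in opposite directions. The cohesin gene afd1 (GRMZM2G059037) stood at 1517, 1682, 1292 and 1825 in ndl1, against 723, 700.5 and 706 in wildtype. Dmc1 (GRMZM2G109618), the gene of a meiotic recombinase, stood at 517, 741, 398 and 449 in ndl1, against 256, 219 and 179.8 in wildtype. Conversely ZYP1 (GRMZM2G143590), for a protein of the synaptonemal complex, stood at 423, 387, 359.8 and 383 in ndl1, against 489.9, 619.6 and 546 in wildtype. Log2 fold changes were 1.14 ± 0.11, 1.24 ± 0.21 and -0.50 ± 0.10 (limma, BH-adjusted p = 0.00271, 0.0235 and 0.0428). Of 10 anther and meiosis genes 2 rose and 1 fell, with a median of 0.04, and their summed level was 6961 to 7610 in ndl1 and 6658 to 7098 in wildtype. Of these, afd1 was called in every fit without 1 library, while Dmc1 was lost without ndl1 replicate 1 or any 1 wildtype library (at most 0.125) and ZYP1 in all but the fit without ndl1 replicate 2 (at most 0.207). With all libraries limma called 1.94% of all tested genes higher and 1.22% lower.

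Growth and housekeeping lists of 8 to 41 genes held 0 or 1 call each, which does not set them apart at the 3.16% called over all tested genes. Of 41 heat shock and chaperone genes 1 was called, HSF6, a heat shock factor gene, at 553, 458, 344 and 626 in ndl1 and 245, 252 and 200.7 in wildtype (1.06 ± 0.20, limma, BH-adjusted p = 0.0310, lost without ndl1 replicate 1 or any 1 wildtype library). Their median was -0.06. Among 23 cell cycle genes, 8 histone genes, 33 ribosomal protein genes and 22 SBP box genes 0 were called by limma or edgeR, with medians of -0.12, -0.27, -0.02 and 0.07. DESeq2 called 0, 0, 0 and 2 of them, and an unadjusted p under 0.05 was reached by 3, 0, 1 and 4. Over all 22416 tested genes DESeq2 called 9.86%, and 4942 had such a p. Of 16 photosynthesis genes ppdk1 alone was called, and the median was -0.11.

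Outside the lists, BURP10 (GRMZM2G446170), of the BURP domain family, stood at 455, 483, 416 and 620.4 in ndl1, against 80.2, 61.7 and 76.6 in wildtype. SnRK2.11 (GRMZM2G063961), of a kinase family known from osmotic stress, stood at 723, 766, 809 and 894 in ndl1, against 427, 426 and 477 in wildtype. The gene HAK11 (GRMZM2G005040), of a potassium transporter family, stood at 80.8, 72.7, 71.4 and 57.3 in ndl1, against 189, 148 and 167 in wildtype. In all 3 genes the libraries of a group were alike and the groups apart. The log2 fold changes were 2.74 ± 0.16, 0.84 ± 0.10 and -1.25 ± 0.17 (limma, BH-adjusted p = 0.000136, 0.00452 and 0.00965). Of the 105 genes called in every fit, 17 had a descriptive name, and HAK11 was the 1 of these that fell.

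The place of ndl1 replicate 2 was then measured gene by gene. For each ndl1 library, genes were called without it, and its level was placed on a scale from 0, the wildtype mean, to 1, the mean of the other 3 ndl1 libraries. Replicate 2 had a median of 0.54 over the 1467 genes called without it, against 1.06 for replicate 1 (265 genes), 0.74 for replicate 3 (587 genes) and 1.12 for replicate 4 (554 genes). Each median covers a different set of genes, called by a different fit, so the medians are not strictly comparable. The median for replicate 2 was 0.43 among the 1046 genes called higher and 0.70 among the 421 called lower. At or beyond the wildtype mean lay 181 of the genes called higher, and 0 of those called lower. Replicate 2 thus had a lower median share for rises than for falls, a difference that was not tested.

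Named genes differed widely in this respect. By the naming rule, the called genes in which replicate 2 lay nearest to wildtype included TIFY2, CslF6-1, AUX3 and SAG, and the 5 in which it lay farthest beyond the others were stm1, EREB94, phb2, vdac2 and Dmc1. For CslF6-1 (GRMZM2G110145), a cellulose synthase-like gene, the levels were 619, 389, 635 and 875 in ndl1, against 280.2, 205 and 245 in wildtype. In this gene replicate 2 was the lowest ndl1 library yet above all of wildtype, whereas phb2, vdac2, stm1, EREB94 and Dmc1 were highest in it. On the list means, replicate 2 stood at 1.03 for mitochondrial stress genes, where the other ndl1 libraries stood at 0.77 to 1.10, and at 0.47 for glycolysis, where they stood at 0.40 to 0.48. For NAC genes it stood at 0.67 beside 1.0 to 1.69, and for glutathione transferases at 0.83 beside 1.16 to 1.23. The mean of mitochondrial stress genes rests largely on Aox, at a log2 fold change of 7.96, where the list median was 0.21. That of the transferases rests largely on gst2 and gst42, at 6.87 and 6.45, where the list median was 0.42.

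**Figure D4:**
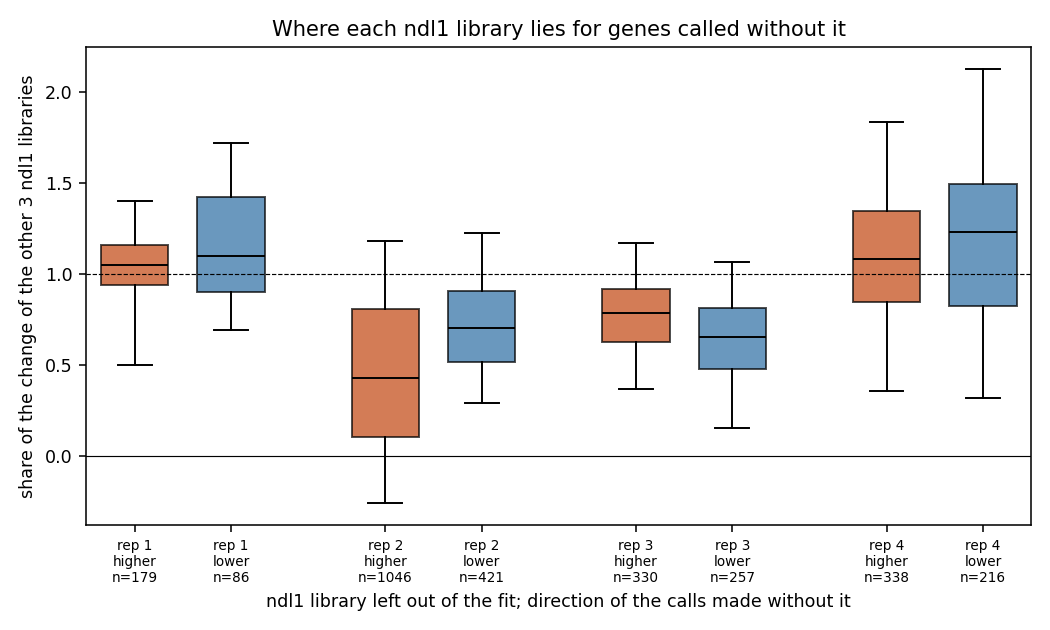
Level of each ndl1 library on a scale from the wildtype mean (0) to the mean of the other 3 ndl1 libraries (1), for genes called without that library. Boxes span the quartiles with the median, whiskers reach the 5th and 95th percentiles, orange is for genes called higher and blue for genes called lower in ndl1; the medians of replicate 2 are 0.43 and 0.70.

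A few genes had no read at all in 1 group. GRMZM2G068091 had 0 reads in each of the 4 ndl1 libraries, against 166, 137 and 111 normalized counts in wildtype. Measured against a floor of 3 reads over the group, it was at least 189.5-fold lower in ndl1 (limma, BH-adjusted p = 6.19e-05). GRMZM5G833625 likewise had 0 reads in ndl1 and averaged 58.1 in wildtype, at least 79.8-fold lower in ndl1. With no read in any wildtype library, 6 genes were called higher, led by GRMZM5G869635, which averaged 84.4 normalized counts in ndl1 and was at least 82.5-fold higher there. GRMZM2G114882 had 0, 0, 4.41 and 1.98 in ndl1, against 164, 169.6 and 132 in wildtype (-6.28 ± 0.62, limma, BH-adjusted p = 0.00257). The files pair none of these identifiers with a descriptive name. The floor covers counting error only, while the error given for GRMZM2G114882 is limma's standard error.

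The last of these genes lay near NDL1. In the order of tested genes along the chromosome, taken from RefSeq's annotation of B73 (Zm-B73-REFERENCE-NAM-5.0), GRMZM2G114882 was the 77th gene from NDL1. Among the 200 tested genes within 100 places of NDL1 on either side, 20 were called (10%), 17 of them lower in ndl1 (8.50%). On the other chromosomes 422 of 13517 were called (3.12%), 144 of them lower (1.07%). The genes of the window were unevenly placed, with 15 of the 17 falls on the side of lower positions. From there to 200 places 7 of 200 were called, 4 of them lower, and farther out on the same chromosome 37 of 938, 19 of them lower.

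The falls near NDL1 were of every size, from -0.32 for the gene listed as UCE, 6 places away, to -6.28 for GRMZM2G114882. In the window 3 genes rose, among them act1 (0.76), an actin gene 99 places away. Every ndl1 library was below every wildtype library in 53 of the 200 genes (26.5%), beside 10.4% on the other chromosomes. Leaving out wildtype replicate 2 brought the calls in the window to 4, all lower, and leaving out ndl1 replicate 1 or wildtype replicate 1 or 3 to 11, 9 and 9. This description was made after the values had been seen.

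**Figure D5:**
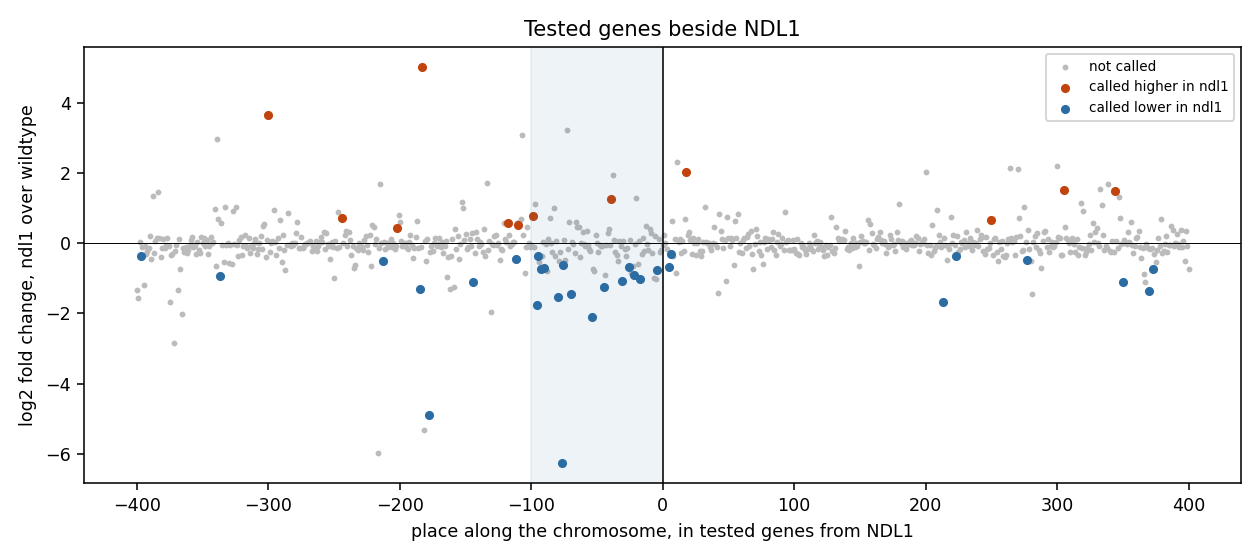
Log2 fold change of ndl1 over wildtype (vertical axis) for tested genes within 400 places of NDL1 (horizontal axis, place in gene order, 0 is NDL1), with genes called higher in ndl1 in orange, called lower in blue and the rest in grey. The shaded 100 places on the side of lower positions hold 15 of the 17 genes called lower within 100 places, including GRMZM2G114882 at -6.28.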

How the data were processed

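Per the labels' protocols, total RNA of snap-frozen tassels was made into stranded TruSeq mRNA libraries. Per the submitters' processing notes the tools were Trimmomatic, TopHat2 2.1.1, HTSeq and DESeq2. The sources used here name no genome build, annotation or strand setting for the counting, so reads of antisense, overlapping or near-identical genes are uncertain. In the deposited table the signal values are counts scaled by the authors with 1 DESeq2 size factor per library, as headers and values show. Its log2 fold changes, standard errors, score (test statistic) and p-value columns are the authors' DESeq2 output, per the file headers. In every library 100% of values were whole reads within 0.1 reads, so counts were recovered. The table held 39305 identifiers, of which 8593 had no read, 18476 matched 1 RefSeq gene (Zm-B73-REFERENCE-NAM-5.0), 521 matched several and 2720 had a descriptive name.

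Genes were tested with limma 3.58.1 (R 4.3.3, trended prior variance) on log2(normalized count + 1), fitted to the 7 libraries and adjusted over all tested genes by Benjamini-Hochberg, at 0.05. Each fold change is ndl1 minus wildtype on that scale, which understates changes of low genes, and errors are standard errors. Genes were kept by edgeR's filterByExpr at a minimum count of 10 on recovered reads. Alternatives on the recovered reads were the quasi-likelihood test of edgeR 4.0.16, which called 684 genes, and DESeq2 1.42.0. The fits were tested on simulated data. Same-group library pairs had chi-square values of 9.79 to 40.2 per degree of freedom, so none was counted as a copy. A p-value here reflects the variation among these libraries alone, which may be technical, since no label says that they came from separate plants.

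The comparison, the gene lists and the named-gene rule were chosen with earlier results of these data known. Named genes were NDL1, and, among genes that were called, descriptively named and without overlap, the 15 largest rises and 15 largest falls with a mean of at least 50 normalized counts in the higher group. To these came up to 4 called members per list, the 2 largest changes of any identifier each way, genes called in every fit without 1 library, and the 5 nearest to and 5 farthest from wildtype in ndl1 replicate 2. The rule named 68 genes, of which the text gives part, and 1 is not reported here. Members were matched by gene name, and false matches were dropped. The promoter description planned for the called genes was not run, because no promoter sequences were used here.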

Additional observations from a re-analysis of the deposited data

Results flagged for a closer look

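Of 92 groups of 4 ndl1 values examined for a library far from the others, 4 were found, and chance flags about 1 in 20 such groups. The auxin response factor gene ARF9 had 11.69 in ndl1 replicate 2 on the scale of log2(normalized count + 1), a level of 3300.5 normalized counts, where no other ndl1 library had less than 11.95. The aldolase gene ald1 had 13.57 in ndl1 replicate 2 (12155 normalized counts), beside 13.91 to 13.94 in the others. In both genes replicate 2 was the lowest of the ndl1 libraries and remained above all wildtype libraries. The cytokinin receptor gene HK1a2 had 9.55 in ndl1 replicate 1 (749.6 normalized counts), beside 9.39 to 9.40 in the others. The mean log2 deviation of the glycolysis list was 0.405 in ndl1 replicate 4, beside 0.473 to 0.484 in the other ndl1 libraries.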

How the results depend on the processing

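No called gene among the 68 named by the rule changed direction under any setting. Against 708 calls (434 higher and 274 lower in ndl1), pseudocounts of 0.5 and 5, no filter on low counts, TMM scaling and edgeR gave counts within 1.5 times. DESeq2 on the recovered reads called 2210 genes (1360 and 850), and library weights, added after seeing the data, called 1666 (963 and 703), each including over 700 of the 708 in the same direction (707 and 708). The cause was not tested. The lowest library weight was that of ndl1 replicate 4 (0.468) and the highest that of wildtype replicate 2 (2.01), with ndl1 replicate 2 at 1.01. An adjusted p under 0.05 stood beside 2030 genes in the authors' deposited table, 699 of them among the 708. Leaving out 1 library gave 111 to 1467 calls, 96 to 1046 higher and 15 to 421 lower, each with fewer samples. Of 68 named genes, 48 lost their call in at least 1 such fit, 48 of them without wildtype replicate 2, whereas leaving out ndl1 replicate 2 ended 2 calls. A pairing of samples by replicate number was not assumed. Deviations of same-numbered libraries correlated at -0.11, 0.22 and -0.01, and no ndl1 library correlated best with its own number. These deviations are centred on the means of small groups, so they do not settle whether the numbers pair the samples. The fit with a replicate block called 365 genes (254 and 111), 280 of them among the 708. No wildtype library shares the number of ndl1 replicate 4, so that library adds nothing to the contrast in the block fit. The block fit gave Aox, gst2 and GLB1 the same fold changes as the fit without ndl1 replicate 4, which called 554 genes. The fall from 708 calls therefore mixes the block with the loss of a library, and does not measure the effect of pairing alone. Depth limits calls among genes with few reads.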
